A study of Mus musculus with 12 samples.

Results

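Of 39 autophagy genes that act beside or downstream of the ULK kinase complex, chosen by symbol, 37 were annotated on the array and 34 could be tested, among 8898 tested genes in all. The 2 symbols without an annotated probe, Atg14 and Optn, were not analysed here. Pik3r4 was detected on 1 array, and Atg4a and Prkaa2 on 0 arrays, so these 3 genes were not tested. The genes were grouped into 8 roles: nucleation, lipid transfer and the ER site, WIPI proteins, conjugation, ATG4 proteases, ATG8 family, cargo receptors, and upstream kinases with their regulators. RNA came from mouse embryonic fibroblasts (MEFs) of the C57BL/6J strain and was measured on 12 Illumina bead arrays, with 3 arrays in each of 4 groups. The groups were Ulk1/2-/- MEFs given mouse IFNβ at 2500 IU/ml for 6 h, untreated Ulk1/2-/- MEFs, Ulk1/2+/+ MEFs given the same IFNβ treatment, and untreated Ulk1/2+/+ MEFs. Ulk1/2-/- cells lack both ULK kinases, and Ulk1/2+/+ cells are their wild-type counterpart. IFNβ is a type I interferon, a cytokine released on viral infection, and the title of the study asks about ULK1 in its signalling. The labels do not say whether the arrays of a group came from separate cultures or embryos, and p-values then describe the spread among these arrays, which may be technical.

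Levels are log2 intensities after background correction and quantile normalization. Calls are genes with an adjusted p under 0.05 in limma, adjusted by Benjamini and Hochberg's method across the 8898 genes, and a probe was detected at a detection p under 0.01. Ulk1 was at least 3.44-fold lower and Ulk2 at least 2.78-fold lower in untreated Ulk1/2-/- than in untreated Ulk1/2+/+ arrays, as bounds because neither was detected in the knockout arrays. Where these probes lie relative to the deleted parts was not analysed here. IFNβ raised the antiviral gene Rsad2 by 4.15 on the log2 scale in Ulk1/2-/- cells and by 6.78 in Ulk1/2+/+ cells. Isg15 rose by 1.82 in Ulk1/2-/- and 4.02 in Ulk1/2+/+ cells and Irf7 by 2.93 in Ulk1/2-/- and 4.24 in Ulk1/2+/+ cells, and Ifit1 was not tested. All 3 genes were called higher in untreated Ulk1/2-/- than in untreated Ulk1/2+/+ cells, Irf7 by 0.87, Rsad2 by 2.18 and Isg15 by 2.23 on the log2 scale. After IFNβ the differences of these genes, from -0.44 to 0.04, were not called. Of 11 fibroblast markers, 10 were detected on all 12 arrays, while 5 of 6 annotated leukocyte markers were detected on 0 arrays and the other, Cd3e, on all 12. The summed normalised intensity of the fibroblast list was 12669 to 15668 in untreated Ulk1/2-/- arrays and 13921 to 16432 in untreated Ulk1/2+/+ arrays, which overlap. With treatment the sum was 14036 to 14348 in IFNβ-treated Ulk1/2-/- arrays and 14987 to 15336 in IFNβ-treated Ulk1/2+/+ arrays, without overlap. Of the 11 fibroblast markers, 4 were called lower and 1 higher in untreated Ulk1/2-/- cells, and 5 lower and 1 higher in IFNβ-treated ones. That of the leukocyte list was 194 to 250 in untreated Ulk1/2-/- and 146 to 156 in untreated Ulk1/2+/+ arrays. The epithelial list summed to 125 to 139 in untreated Ulk1/2-/- and 98.4 to 107 in untreated Ulk1/2+/+ arrays, and the neural list to at most 88.4 in untreated Ulk1/2-/- and 119 to 123 in untreated Ulk1/2+/+ arrays. The sums of these 3 lists did not overlap between the genotypes after IFNβ either, and they lay on the same side. Of the 4 neural markers, 3 were detected on 0 arrays and Sox2 on 6, and no epithelial marker was detected on more than 4. These 3 sums thus add mostly undetected probes, and the leukocyte and neural sums hold 1 detected gene each. The part of the marker lists in the differences below was not tested. The genotypes differed in more than Ulk1 and Ulk2: Pdgfra, the platelet-derived growth factor receptor alpha gene and a fibroblast marker, was at least 16.2-fold lower in IFNβ-treated Ulk1/2-/- cells, and in untreated ones Xist was at least 5.25-fold higher and the Y-linked Eif2s3y at least 9.76-fold lower. Genotype, sex of the cultures and culture history cannot be told apart in any difference between genotypes given here. The arrays also fell into 2 sets by median intensity, at 97.5 to 99.7 (2 of 3 arrays in each Ulk1/2-/- group, 1 of 3 in each Ulk1/2+/+ group) and at 86.5 to 87.9, called the higher and the lower background set.

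Autophagy encloses cell contents in a double membrane, the autophagosome, that fuses with the lysosome. Under nutrients the kinase complex of MTOR and RPTOR restrains the ULK kinases, and under low energy AMPK activates them. ULK activity then starts the lipid kinase complex of BECN1 and PIK3C3, whose product recruits WIPI proteins, and the ATG conjugation systems attach ATG8 family proteins to the growing membrane, where cargo receptors dock. Much of this control acts on proteins, and only RNA was measured here.

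The promoters of the 4 genes with the largest called IFNβ change or genotype difference among those with a promoter in the table are shown. Map1lc3a (0.848 after IFNβ) and Becn1 (-0.778 untreated) had called genotype differences larger in size than the values of Mtor, Wipi2 and Wipi1. They had no promoter there and are not shown. The windows run from 250 bases before to 50 bases after the start of the gene, 300 bases in all, from RefSeq on GRCm38.p6, and are written 5′ to 3′ on the strand of the gene. Capitals mark matches, on either strand, to an interferon-stimulated response element core (GAAANNGAAA), a gamma-activated site core (TTCNNNGAA) or an E-box (CACGTG).
Atg3 promoter, chr16:45158579-45158878, plus strand: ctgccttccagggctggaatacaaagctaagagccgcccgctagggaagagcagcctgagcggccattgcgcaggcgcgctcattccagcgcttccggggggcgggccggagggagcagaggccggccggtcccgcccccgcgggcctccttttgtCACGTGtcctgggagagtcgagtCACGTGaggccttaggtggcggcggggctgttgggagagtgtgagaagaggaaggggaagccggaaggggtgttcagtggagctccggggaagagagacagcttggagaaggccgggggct
Mtor promoter, chr4:148448332-148448631, plus strand: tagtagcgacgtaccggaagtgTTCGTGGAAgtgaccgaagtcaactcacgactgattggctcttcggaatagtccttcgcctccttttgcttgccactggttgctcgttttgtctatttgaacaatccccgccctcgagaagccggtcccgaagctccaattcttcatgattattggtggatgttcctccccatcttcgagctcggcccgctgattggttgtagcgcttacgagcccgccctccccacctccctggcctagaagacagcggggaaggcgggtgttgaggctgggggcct
Wipi2 promoter, chr5:142629334-142629633, plus strand: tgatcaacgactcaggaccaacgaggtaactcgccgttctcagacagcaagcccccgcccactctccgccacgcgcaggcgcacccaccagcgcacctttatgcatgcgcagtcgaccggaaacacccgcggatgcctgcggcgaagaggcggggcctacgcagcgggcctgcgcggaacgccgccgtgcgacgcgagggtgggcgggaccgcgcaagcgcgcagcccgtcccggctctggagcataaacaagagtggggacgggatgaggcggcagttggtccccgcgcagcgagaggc
Wipi1 promoter, chr11:109611340-109611639, minus strand: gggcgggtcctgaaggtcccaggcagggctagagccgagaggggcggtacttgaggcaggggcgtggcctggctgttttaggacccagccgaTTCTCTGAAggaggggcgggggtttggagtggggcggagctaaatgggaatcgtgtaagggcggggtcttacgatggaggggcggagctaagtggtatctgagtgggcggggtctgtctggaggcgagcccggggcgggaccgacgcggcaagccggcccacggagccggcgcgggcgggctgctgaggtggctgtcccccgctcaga
The Atg3 window held 2 E-box matches, starting at positions -94 and -71 from the gene start. The Mtor window held a gamma-activated site core match at -228 and the Wipi1 window one at -158, and the Wipi2 window held none of the 3 motifs. Of 33 genes of the set with a promoter in the table, 1 (Nbr1) held the interferon-stimulated response element core, 5 the gamma-activated site core and 4 the E-box. Of all 32851 promoter windows, 3.44% held the interferon-stimulated response element core, 8.3% the gamma-activated site core and 7.15% the E-box. Counted by window in the same way, the shares of the 40 windows of the set were 2.5%, 12.5% and 10.0%. A match describes letters in the window and was not tied to any factor.

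After IFNβ, few autophagy genes were called in the fit with no block, and more passed with a replicate block, as given below. In such bulk RNA, fewer cells of a kind and less RNA per cell cannot be told apart. In Ulk1/2-/- cells 1 of 34 tested members was called, Wipi1, which was lower, against 11.4% of all genes called in that comparison (6.25% higher and 5.16% lower). In Ulk1/2+/+ cells 3 members were called, Wipi2, Atg2b and Atg5, all lower, against 18.7% of all genes (8.08% higher and 10.7% lower). The called share of the 34 members was thus 2.94% in Ulk1/2-/- cells and 8.82% in Ulk1/2+/+ cells, below the share of all genes in either genotype. The median change of the members was -0.09 in Ulk1/2-/- cells, beside -0.07 over all genes. In Ulk1/2+/+ cells it was 0.02, beside -0.08 over all genes. With the sign set aside, the median size in Ulk1/2-/- cells was 0.12 for members and 0.15 over all genes. In Ulk1/2+/+ cells this median size was 0.20 for members and 0.18 over all genes, so the members did not change less there. Between members the log2 change ran from -0.60 to 0.33 in Ulk1/2-/- cells and from -0.71 to 0.32 in Ulk1/2+/+ cells. No measured change thus reached 2-fold. The 95% interval of the change lay wholly within 2-fold in either direction for 34 of 34 members in Ulk1/2-/- cells. In Ulk1/2+/+ cells it did for 33 of 34. These counts include Zfyve1, Nbr1, Atg4c, Atg7, Tsc1 and Prkaa1, detected on 4 to 8 of 12 arrays. They also include Atg4b (4.83 to 5.65), Atg9a (5.09 to 5.67) and Gabarapl2 (5.33 to 5.88). Atg3 was similarly dim in Ulk1/2-/- arrays (4.75 to 5.44). The lowest detected signal of an array was 4.80 to 5.04. Near background a measured change is compressed, so for these genes a larger RNA change could be missed. Groups did not overlap for 8 members in either genotype, against 28.9% of all genes in Ulk1/2-/- cells and 33.8% in Ulk1/2+/+ cells.

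**Figure D1:**
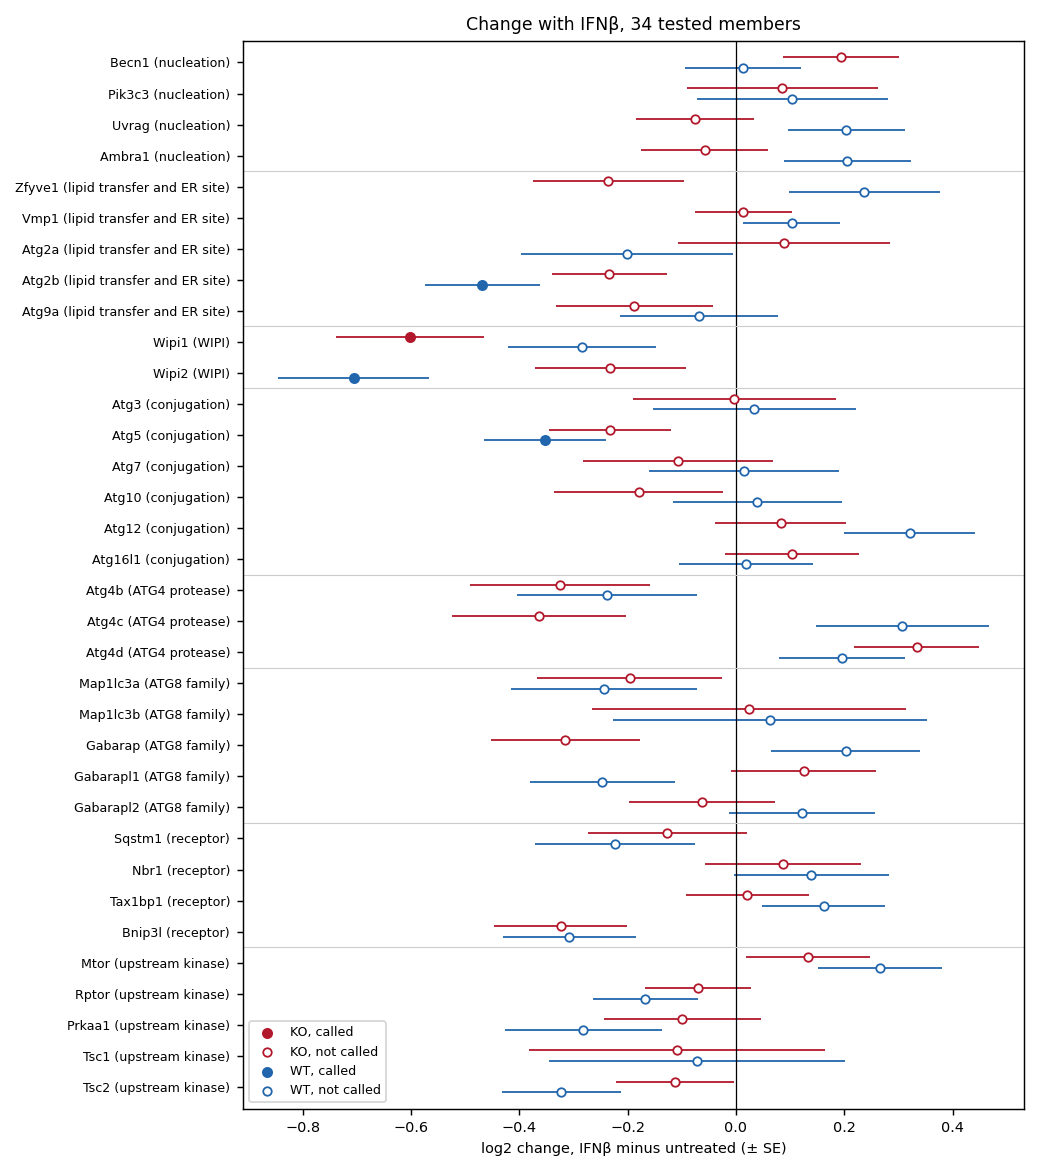
Change with IFNβ (log2, IFNβ minus untreated, x axis) of the 34 tested autophagy genes, ordered by role, in Ulk1/2-/- (KO, red) and Ulk1/2+/+ (WT, blue) MEFs. Points are the fitted changes, bars ± 1 SE from the shared fit over 12 arrays, and filled points are called at an adjusted p under 0.05. The filled points are Wipi1 at -0.60 in KO and Wipi2 at -0.71, Atg2b at -0.47 and Atg5 at -0.35 in WT.

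The WIPI genes, whose proteins bind the phosphatidylinositol 3-phosphate made at the nascent membrane, held the largest IFNβ change in each genotype. Wipi1 was at 7.37, 7.08 and 7.06 in IFNβ-treated Ulk1/2-/- arrays, against 7.72, 7.99 and 7.61 in untreated Ulk1/2-/- arrays. All 3 treated arrays lay below all 3 untreated ones. The log2 change was -0.60 ± 0.14 (SE, limma adjusted p = 0.00995), a 1.52-fold fall. Within the higher and the lower background set alone the change was -0.73 and -0.34. Without untreated Ulk1/2-/- replicate 2, the highest array, it was -0.49 and no longer passed (limma adjusted p = 0.0564). In Ulk1/2+/+ cells Wipi1 was at 7.37, 7.07 and 7.05 with IFNβ and at 7.33, 7.41 and 7.61 without it. These groups overlapped, and the change was -0.28 ± 0.14 (limma adjusted p = 0.177). Wipi1 had 2 further tested probes, which gave changes in Ulk1/2-/- cells of -0.42 (limma adjusted p = 0.0402) and -0.44 (limma adjusted p = 0.308).

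Wipi2, whose protein also brings the ATG16L1 complex to the membrane, was at 6.78, 7.02 and 6.67 in IFNβ-treated Ulk1/2+/+ arrays, against 7.78, 7.44 and 7.36 in untreated Ulk1/2+/+ arrays. Every treated array was below every untreated one. The change was -0.71 ± 0.14 (SE, limma adjusted p = 0.00267), a 1.63-fold fall, and it was -0.69 in the higher and -0.71 in the lower background set. Without background correction the change was -0.47 (limma adjusted p = 0.00254). The Ulk1/2-/- cells had Wipi2 at 6.74, 6.72 and 6.58 with IFNβ and at 7.14, 6.80 and 6.79 without it. The treated arrays were again the lower ones, by less, and the change of -0.23 ± 0.14 did not pass (limma adjusted p = 0.351). Its other 2 tested probes gave changes in Ulk1/2+/+ cells of -0.46 (limma adjusted p = 0.0268) and -0.40 (limma adjusted p = 0.0776).

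Atg2b encodes a protein that carries lipids from the endoplasmic reticulum to the growing membrane. It was at 7.80, 8.00 and 8.12 in IFNβ-treated Ulk1/2+/+ arrays and at 8.39, 8.36 and 8.58 in untreated ones, without overlap. The change was -0.47 ± 0.11 (SE, limma adjusted p = 0.00683). The Ulk1/2-/- arrays had Atg2b at 8.16, 8.07 and 8.04 with IFNβ and at 8.26, 8.36 and 8.35 without it, a change of -0.23 ± 0.11 that did not pass (limma adjusted p = 0.197). The treated arrays were the lower ones in either genotype. A second probe of Atg2b gave -0.11 in Ulk1/2+/+ cells (limma adjusted p = 0.595), and the call of the brighter probe was lost under median scaling (limma adjusted p = 0.0864).

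Atg5, the partner that ATG12 is attached to, was at 8.48, 8.59 and 8.26 in IFNβ-treated Ulk1/2+/+ arrays and at 8.64, 8.93 and 8.80 in untreated ones. The groups did not overlap, though the brightest treated array lay close under the dimmest untreated one. The change was -0.35 ± 0.11 (SE, limma adjusted p = 0.0420). This call was near the threshold: it was lost when any of 8 arrays was left out, with limma adjusted p between 0.0504 and 0.167, and remained without Ulk1/2-/- + IFNβ replicate 1 or 3, Ulk1/2+/+ + IFNβ replicate 2 or untreated Ulk1/2+/+ replicate 1. Atg5 in Ulk1/2-/- cells was at 8.22, 8.18 and 8.04 with IFNβ and at 8.41, 8.34 and 8.40 without it, a change of -0.23 ± 0.11 (limma adjusted p = 0.232). The second Atg5 probe gave changes of -0.28 in Ulk1/2-/- cells (limma adjusted p = 0.169) and -0.27 in Ulk1/2+/+ cells (limma adjusted p = 0.134).

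Same-numbered arrays of a genotype deviated together, and with the replicate number as a block within genotype more members passed. Of the members, 4 were then called in Ulk1/2-/- cells, against 21.6% of all genes under the same block. These were Wipi1, Bnip3l (-0.32, limma adjusted p = 0.0249) and Gabarap (-0.32, limma adjusted p = 0.0200), all lower, and Atg4d (0.33, limma adjusted p = 0.0457), which was higher. In Ulk1/2+/+ cells 7 members were called under the block, against 31.5% of all genes. They were Wipi2, Atg2b and Atg5 with Tsc2 (-0.32, limma adjusted p = 0.0136), Bnip3l (-0.31, limma adjusted p = 0.0231) and Gabarapl1 (-0.25, limma adjusted p = 0.0443), all lower, and Atg12 (0.32, limma adjusted p = 0.0302), which was higher. Bnip3l, a receptor for the removal of mitochondria, was thus lower with IFNβ in both genotypes under the block, and in the fit with no block it passed in neither. With the background set as a block it passed in Ulk1/2+/+ cells (limma adjusted p = 0.0481), and with no block it passed in Ulk1/2-/- cells without untreated Ulk1/2-/- replicate 3 (limma adjusted p = 0.0355). All 6 same-numbered pairs of a genotype also share their background set, so the replicate number and the set overlap. With the background set as a block, 3 members were called in Ulk1/2-/- cells (Gabarap and Atg4d added), beside 19.3% of all genes, 6 in Ulk1/2+/+ cells (Tsc2, Bnip3l and Atg12 added), beside 29.3%, and 0 in the limma interaction, beside 2.26%.

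Whether the IFNβ change itself differed between genotypes was tested with the interaction, the change in Ulk1/2-/- minus that in Ulk1/2+/+ cells. No member was called (0 of 34) in limma, against 1.05% of all genes (0.303% higher and 0.742% lower), and 4 of 34 members had an unadjusted p under 0.05, beside 817 of all 8898 genes. Atg4c, a protease of the family that trims ATG8 proteins, did not pass (limma adjusted p = 0.299). Its levels were 4.53, 4.75 and 4.79 in IFNβ-treated and 5.27, 4.76 and 5.13 in untreated Ulk1/2-/- arrays. In Ulk1/2+/+ cells they were 5.27, 5.07 and 5.04 with IFNβ and 4.88, 5.08 and 4.50 without it. Atg4c was detected on 6 of 12 arrays and on 0 of the 3 IFNβ-treated Ulk1/2-/- arrays, so much of this range lies near background and no size is given for its difference. Gabarap, an ATG8 family gene detected on all 12 arrays, had a difference of -0.52 (95% interval -0.94 to -0.10, limma adjusted p = 0.382). Gabarap was at 9.74, 9.77 and 9.66 in IFNβ-treated and 10.19, 10.06 and 9.88 in untreated Ulk1/2-/- arrays, and at 10.14, 10.00 and 9.75 in IFNβ-treated and 9.97, 9.82 and 9.50 in untreated Ulk1/2+/+ arrays. With the replicate block within genotype the Gabarap difference passed (limma adjusted p = 0.0409), against 2.85% of all genes under that block. For Wipi2 the difference was 0.47 (95% interval 0.05 to 0.90, limma adjusted p = 0.468) and for Wipi1 it was -0.32 (95% interval -0.73 to 0.10, limma adjusted p = 0.704). So for the genes called in 1 genotype, a difference between genotypes was not shown, and these intervals also do not show that the changes were alike.

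Between the genotypes more members differed, about as often as genes did in general. In untreated cells 11 of 34 members were called (32.4%), against 33.9% of all genes (15.9% higher and 18% lower), with 3 higher in Ulk1/2-/- cells (Map1lc3a, Uvrag, Ambra1) and 8 lower (Atg3, Becn1, Mtor, Wipi2, Tsc2, Gabarapl1, Bnip3l, Atg5). After IFNβ 8 were called (23.5%), against 31.8% of all genes (15.3% higher and 16.5% lower), with Map1lc3a and Uvrag higher and Atg3, Mtor, Becn1, Zfyve1, Bnip3l and Tsc2 lower. The share of members called was thus near the share of all genes in untreated cells and below it after IFNβ. The median member difference was -0.08 in either condition, beside -0.03 over all genes in untreated cells and -0.02 after IFNβ. Groups did not overlap for 11 members in untreated cells, against 45.9% of all genes, and for 15 after IFNβ, against 43.2%. Each of the 23 calls over the 4 pairwise comparisons passed with the background set as a block. In each of them the compared groups did not overlap, so the sign within a set could not differ and adds no support. Under that block 12 members were called in untreated cells, beside 43.1% of all genes, and 10 after IFNβ, beside 40.4%. The members added by the block were Gabarap in untreated cells (0.36, limma adjusted p = 0.0107) and, after IFNβ, Sqstm1 (0.41, limma adjusted p = 0.0149) and Atg4c (limma adjusted p = 0.0465), which was undetected in IFNβ-treated Ulk1/2-/- arrays.

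**Figure D2:**
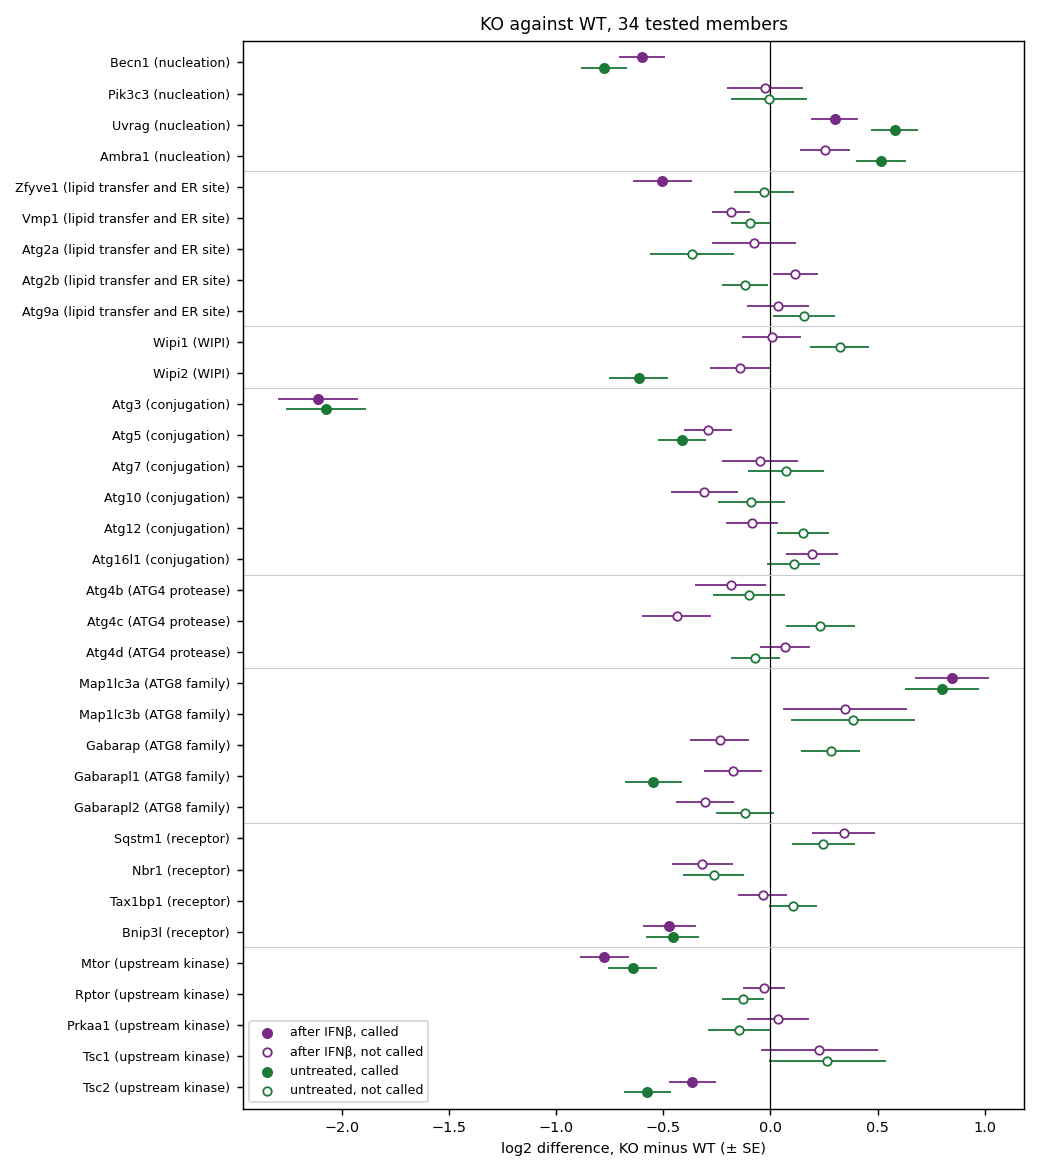
Difference between genotypes (log2, Ulk1/2-/- minus Ulk1/2+/+, x axis) of the 34 tested autophagy genes, ordered by role, after IFNβ (purple) and untreated (green). Points are fitted differences, bars ± 1 SE from the shared fit, and filled points are called at an adjusted p under 0.05. Atg3 stands apart at -2.11 after IFNβ and -2.07 untreated, and every other point lies between -0.78 and 0.85.

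Atg3, the enzyme that transfers ATG8 proteins onto phosphatidylethanolamine, had the largest difference of all members. It was at 4.95, 5.44 and 5.04 in untreated Ulk1/2-/- arrays, against 7.10, 7.24 and 7.30 in untreated Ulk1/2+/+ arrays. After IFNβ it was at 4.75, 5.34 and 5.34 in Ulk1/2-/- arrays, against 7.06, 7.08 and 7.60 in Ulk1/2+/+ arrays. The 6 Ulk1/2-/- arrays lay far below the 6 Ulk1/2+/+ arrays, and the IFNβ-treated and untreated arrays of each genotype overlapped. The difference was -2.07 ± 0.19 untreated (SE, limma adjusted p = 1.3e-06), which is 4.21-fold lower, and -2.11 ± 0.19 after IFNβ (limma adjusted p = 1.1e-06), 4.31-fold lower. Without background correction the Atg3 difference was -1.02 untreated (limma adjusted p = 4.5e-06) and -1.05 after IFNβ (limma adjusted p = 3.7e-06), so its size depends on that step while the call does not. Within the background sets it ran from -2.32 to -2.06. Atg3 was still detected on all 3 untreated and on 2 of 3 IFNβ-treated Ulk1/2-/- arrays. These levels were near the lowest detected signals, 4.85, 4.80 and 4.93 on the untreated and 4.91, 5.04 and 4.91 on the IFNβ-treated Ulk1/2-/- arrays. A measured difference is compressed there, so the fold in RNA could be larger. An IFNβ change of Atg3 within Ulk1/2-/- cells could also be missed. The value rests on 1 probe, since the other 2 Atg3 probes were detected on 0 arrays. The promoter of this gene is the window above with the paired E-box matches.

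Few other conjugation genes passed. Of 6 tested conjugation genes, Atg3 and Atg5 were lower in untreated Ulk1/2-/- cells, only Atg3 passed after IFNβ, and none was higher. Atg5, with the levels given above, differed by -0.41 ± 0.11 untreated (SE, limma adjusted p = 0.0116), and this call was lost without untreated Ulk1/2+/+ replicate 2 (-0.34, limma adjusted p = 0.0568). After IFNβ its difference was -0.29 ± 0.11 and did not pass (limma adjusted p = 0.0636). The second Atg5 probe was lower in Ulk1/2-/- cells in both conditions, by -0.37 untreated (limma adjusted p = 0.0220) and -0.38 after IFNβ (limma adjusted p = 0.0213). For Atg7, the activating enzyme, Atg10, Atg12 and Atg16l1 the differences ran from -0.31 to 0.19, and none passed.

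In the nucleation complex, members moved in opposite directions. Becn1, the scaffold of the complex, was at 6.06, 6.12 and 5.89 in untreated Ulk1/2-/- arrays, against 6.84, 6.78 and 6.78 in untreated Ulk1/2+/+ arrays. After IFNβ it was at 6.16, 6.09 and 6.41 in Ulk1/2-/- arrays, against 6.86, 6.86 and 6.73 in Ulk1/2+/+ arrays. The genotypes did not overlap in either condition. The difference was -0.78 ± 0.11 untreated (SE, limma adjusted p = 7.5e-05) and -0.60 ± 0.11 after IFNβ (limma adjusted p = 0.000741). The second Becn1 probe gave -0.07 untreated (limma adjusted p = 0.843) and -0.29 after IFNβ (limma adjusted p = 0.366). Without background correction the used probe gave -0.41 untreated (limma adjusted p = 0.000139) and -0.33 after IFNβ (limma adjusted p = 0.000898). Which transcripts each probe reads was not tested.

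Uvrag, a BECN1 partner that also acts in endosome maturation, was higher in Ulk1/2-/- cells. It was at 8.35, 8.37 and 8.40 in untreated Ulk1/2-/- arrays and at 7.89, 7.75 and 7.74 in untreated Ulk1/2+/+ arrays, without overlap. The difference was 0.58 ± 0.11 (SE, limma adjusted p = 0.000969). After IFNβ Uvrag was at 8.47, 8.24 and 8.19 in Ulk1/2-/- arrays and at 8.14, 8.00 and 7.85 in Ulk1/2+/+ arrays, a difference of 0.30 ± 0.11 at the edge of the threshold (limma adjusted p = 0.0497). That call held without Ulk1/2-/- + IFNβ replicate 3 or Ulk1/2+/+ + IFNβ replicate 1 and was lost without any of the other 10 arrays, with limma adjusted p from 0.0534 to 0.177. Ambra1, a regulator of BECN1, was at 7.56, 7.78 and 7.78 in untreated Ulk1/2-/- arrays and at 7.19, 7.29 and 7.08 in untreated Ulk1/2+/+ arrays. The genotypes did not overlap, and the difference was 0.52 ± 0.12 (SE, limma adjusted p = 0.00364), with 0.70 in the higher and 0.32 in the lower background set. After IFNβ the difference was 0.25 ± 0.12 (limma adjusted p = 0.118), with Ambra1 at 7.68, 7.61 and 7.66 in Ulk1/2-/- arrays and at 7.16, 7.53 and 7.50 in Ulk1/2+/+ arrays. A second Ambra1 probe gave 0.16 untreated (limma adjusted p = 0.485). The catalytic subunit Pik3c3 differed by -0.01 untreated and -0.02 after IFNβ.

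Wipi2 was the WIPI gene with a called genotype difference, in untreated cells. Its untreated levels, given above, put all 3 Ulk1/2-/- arrays below all 3 Ulk1/2+/+ arrays, by -0.62 ± 0.14 (SE, limma adjusted p = 0.00373). After IFNβ, which lowered Wipi2 in Ulk1/2+/+ cells, the groups overlapped and the difference was -0.14 ± 0.14 (limma adjusted p = 0.487). Its 2 other probes gave untreated differences of -0.69 (limma adjusted p = 0.00233) and -0.34 (limma adjusted p = 0.0582). Wipi1 differed by 0.32 untreated and did not pass (limma adjusted p = 0.0857), while 1 of its other probes was called higher at 0.55 (limma adjusted p = 0.00346) and the remaining one gave 0.50 (limma adjusted p = 0.120). After IFNβ the used Wipi1 probe differed by 0.01.

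Among the genes of lipid transfer and the ER site, Zfyve1 alone was called, after IFNβ. Zfyve1 encodes DFCP1, which marks the membrane site where autophagosomes form. It was at 4.35, 4.69 and 4.52 in IFNβ-treated Ulk1/2-/- arrays, against 4.79, 5.06 and 5.22 in IFNβ-treated Ulk1/2+/+ arrays. The probe was detected on 0 of 3 arrays of the Ulk1/2-/- group and on 2 of 3 of the Ulk1/2+/+ group, so the level in Ulk1/2-/- cells was at least 1.05-fold lower (limma adjusted p = 0.0133). The call was lost without Ulk1/2-/- + IFNβ replicate 1 (limma adjusted p = 0.0525), without Ulk1/2+/+ + IFNβ replicate 3 (limma adjusted p = 0.0562) and without background correction (limma adjusted p = 0.0601). In untreated cells Zfyve1 was at 4.93, 4.80 and 4.54 in Ulk1/2-/- arrays and at 4.76, 4.92 and 4.68 in Ulk1/2+/+ arrays, which overlap. Vmp1, Atg2a, Atg2b and Atg9a, the scramblases, lipid carriers and their partners at this site, differed by -0.36 to 0.16 and none was called. A further probe of Vmp1 was called lower in Ulk1/2-/- cells, by -0.61 untreated (limma adjusted p = 0.00190) and -0.45 after IFNβ (limma adjusted p = 0.0138), and is named here after its values were seen.

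**Figure D3:**
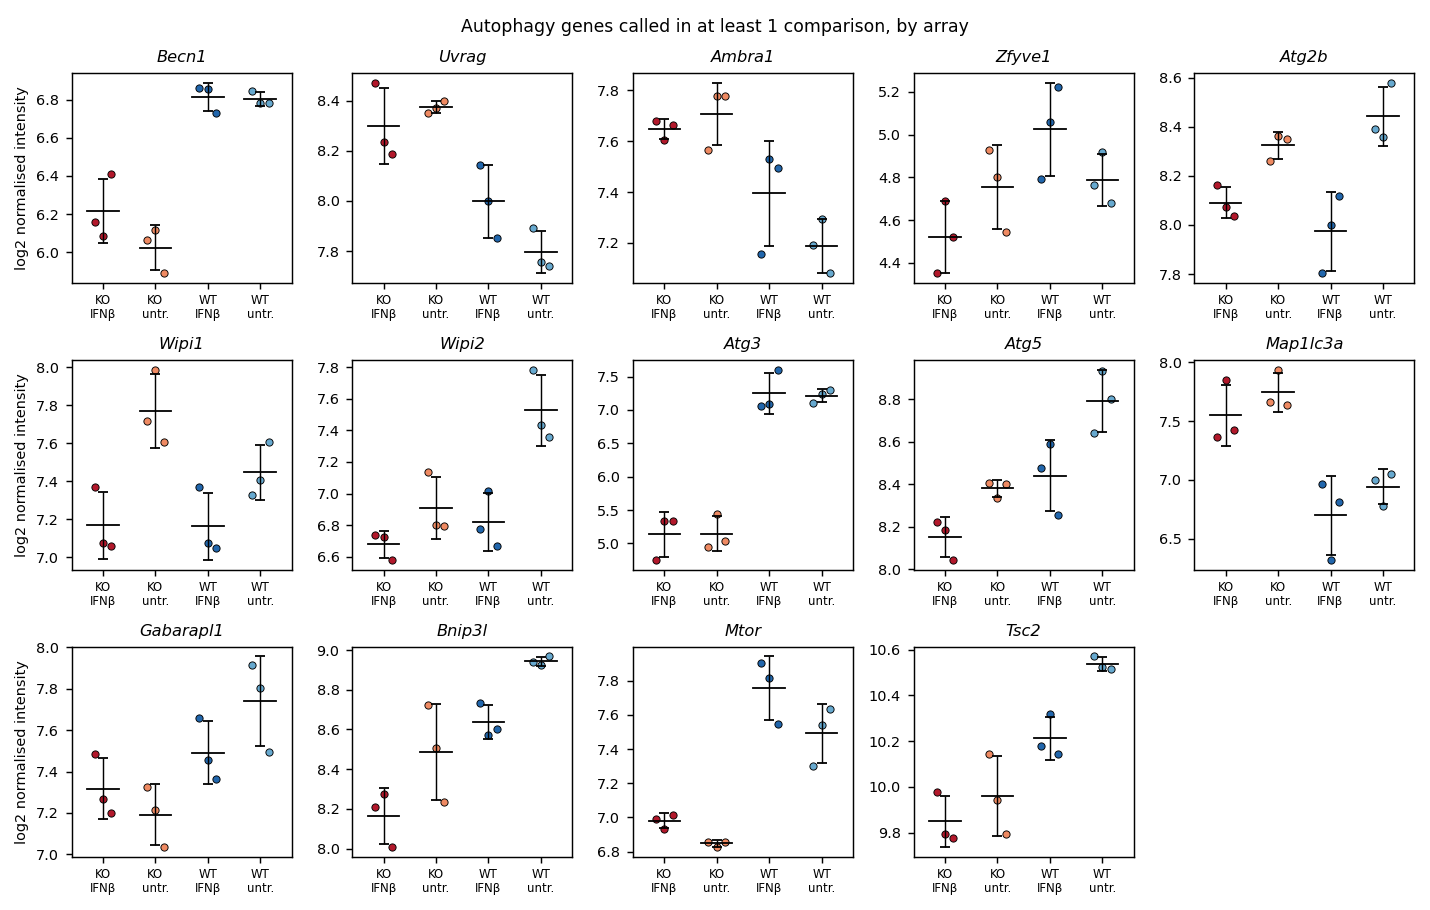
Level of each of the 14 called autophagy genes on every array (log2 normalised intensity, y axis, scaled to each gene) in Ulk1/2-/- (KO) with IFNβ and untreated, then Ulk1/2+/+ (WT) with IFNβ and untreated. Points are arrays, and lines with bars are the mean ± SD of 3 arrays. Atg3, Becn1, Mtor, Map1lc3a, Uvrag and Ambra1 separate all KO from all WT arrays, while Wipi1 separates KO with IFNβ from KO untreated.

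Of the 5 ATG8 family genes, whose proteins coat the membrane and bind receptors, Map1lc3a was higher in Ulk1/2-/- cells. It was at 7.66, 7.94 and 7.64 in untreated Ulk1/2-/- arrays, against 7.00, 6.78 and 7.05 in untreated Ulk1/2+/+ arrays. After IFNβ it was at 7.37, 7.85 and 7.43 in Ulk1/2-/- arrays, against 6.96, 6.32 and 6.82 in Ulk1/2+/+ arrays. Every Ulk1/2-/- array lay above every Ulk1/2+/+ array. The difference was 0.80 ± 0.17 untreated (SE, limma adjusted p = 0.00258) and 0.85 ± 0.17 after IFNβ (limma adjusted p = 0.00180). The second Map1lc3a probe gave 0.06 untreated (limma adjusted p = 0.797) and 0.09 after IFNβ (limma adjusted p = 0.713), so the call rests on the brighter probe. Without background correction that probe gave 0.55 after IFNβ (limma adjusted p = 0.00218).

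Gabarapl1, a family member that also binds receptors, was lower in untreated Ulk1/2-/- cells. It was at 7.33, 7.21 and 7.04 in untreated Ulk1/2-/- arrays, against 7.91, 7.81 and 7.50 in untreated Ulk1/2+/+ arrays, without overlap, and the difference was -0.55 ± 0.13 (SE, limma adjusted p = 0.00609). After IFNβ the arrays were at 7.48, 7.27 and 7.20 in Ulk1/2-/- cells and at 7.66, 7.46 and 7.36 in Ulk1/2+/+ cells. These overlap, and the difference was -0.17 ± 0.13 (limma adjusted p = 0.357). Gabarap, Gabarapl2 and Map1lc3b did not pass in either condition, with differences from -0.31 to 0.39. The ATG4 proteases Atg4b, Atg4c and Atg4d also did not pass. Atg4c was undetected on all 3 IFNβ-treated Ulk1/2-/- arrays and detected on all 3 IFNβ-treated Ulk1/2+/+ arrays. The bound on its means was 1.13-fold lower, a difference that did not pass (limma adjusted p = 0.0512).

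Among cargo receptors, Bnip3l was lower in Ulk1/2-/- cells in both conditions. It was at 8.72, 8.51 and 8.24 in untreated Ulk1/2-/- arrays, against 8.94, 8.92 and 8.97 in untreated Ulk1/2+/+ arrays. After IFNβ it was at 8.21, 8.28 and 8.01 in Ulk1/2-/- arrays, against 8.73, 8.57 and 8.60 in Ulk1/2+/+ arrays. The genotypes did not overlap in either condition, and untreated Ulk1/2-/- replicate 3 was the lowest untreated array. The difference was -0.46 ± 0.12 untreated (SE, limma adjusted p = 0.0109) and -0.47 ± 0.12 after IFNβ (limma adjusted p = 0.00950). The untreated call was lost without untreated Ulk1/2-/- replicate 3 (-0.33, limma adjusted p = 0.0594), and within the higher and the lower background set it was -0.60 and -0.21. Sqstm1, which encodes the receptor p62, differed by 0.25 ± 0.15 untreated (limma adjusted p = 0.221) and 0.34 ± 0.15 after IFNβ (limma adjusted p = 0.0947). Its levels were 9.50, 9.48 and 9.00 in untreated Ulk1/2-/- arrays, against 9.17, 9.12 and 8.96 in untreated Ulk1/2+/+ arrays, which overlap. After IFNβ they were 9.20, 9.29 and 9.11 in Ulk1/2-/- arrays and 9.04, 8.94 and 8.60 in Ulk1/2+/+ arrays, without overlap. Of the ubiquitin-binding receptors, Tax1bp1 differed by 0.11 untreated and -0.04 after IFNβ and did not pass. Nbr1 was detected on 0 of 6 Ulk1/2-/- arrays and was at least 1.09-fold lower untreated (limma adjusted p = 0.174) and at least 1.13-fold lower after IFNβ (limma adjusted p = 0.111), which did not pass. A second Nbr1 probe, named after its values were seen and also detected on 0 of 6 Ulk1/2-/- arrays, was called lower after IFNβ (limma adjusted p = 0.00427), as was the mean of the tested Nbr1 probes (limma adjusted p = 0.00886).

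Of the upstream genes, Mtor and Tsc2 were lower in Ulk1/2-/- cells in both conditions. Mtor, the nutrient-sensing kinase, was at 6.86, 6.83 and 6.86 in untreated Ulk1/2-/- arrays, against 7.30, 7.54 and 7.63 in untreated Ulk1/2+/+ arrays. After IFNβ it was at 6.99, 6.93 and 7.02 in Ulk1/2-/- arrays, against 7.90, 7.82 and 7.55 in Ulk1/2+/+ arrays. All Ulk1/2-/- arrays lay below all Ulk1/2+/+ arrays. The difference was -0.64 ± 0.11 untreated (SE, limma adjusted p = 0.000650) and -0.78 ± 0.11 after IFNβ (limma adjusted p = 0.000143). Without background correction the untreated difference was -0.43 (limma adjusted p = 0.000838). The second Mtor probe gave -0.10 untreated (limma adjusted p = 0.574) and -0.42 after IFNβ (limma adjusted p = 0.0210).

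Tsc2, part of the complex that restrains MTOR, was at 10.14, 9.94 and 9.79 in untreated Ulk1/2-/- arrays, against 10.57, 10.52 and 10.51 in untreated Ulk1/2+/+ arrays. After IFNβ it was at 9.98, 9.79 and 9.77 in Ulk1/2-/- arrays, against 10.18, 10.32 and 10.14 in Ulk1/2+/+ arrays. The genotypes did not overlap in either condition. The difference was -0.57 ± 0.11 untreated (SE, limma adjusted p = 0.00107) and -0.36 ± 0.11 after IFNβ (limma adjusted p = 0.0205). After IFNβ the call was lost without Ulk1/2-/- + IFNβ replicate 2 (limma adjusted p = 0.0710) or 3 (limma adjusted p = 0.0740), or without Ulk1/2+/+ + IFNβ replicate 2 (limma adjusted p = 0.0791). Its other 2 probes did not pass and differed in sign, at -0.33 and 0.37 untreated and at -0.27 and 0.04 after IFNβ. The probe with the negative values was bright, with group means of 9.46 to 9.84 (untreated limma adjusted p = 0.0537). The other was dim, with group means of 5.21 to 5.73, and was detected on 11 of 12 arrays. Tsc1, the partner of TSC2, the MTOR partner Rptor and the AMPK catalytic subunit gene Prkaa1 differed by -0.15 to 0.26 and did not pass. Tsc1 was detected on 7 and Prkaa1 on 8 of 12 arrays, so the sizes of their differences are limited by background.

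**Figure D4:**
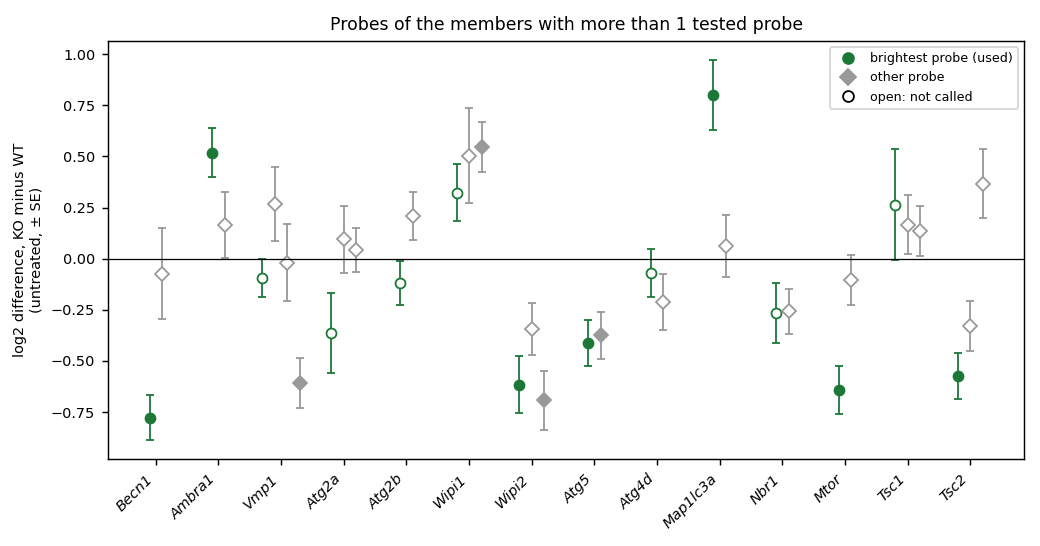
Untreated genotype difference (log2, Ulk1/2-/- minus Ulk1/2+/+, y axis) for each tested probe of the 14 members with more than 1 tested probe. Green circles are the brightest probe, used for the gene, grey diamonds the other probes, bars ± 1 SE, and filled symbols are called at an adjusted p under 0.05. Atg5 and Wipi2 have called probes of both kinds on the same side of 0. The other probes of Mtor at -0.10, Becn1 at -0.07 and Map1lc3a at 0.06 lie near 0. Group means of these probes were 6.76 to 7.18 for Mtor, 5.40 to 5.95 for Becn1 and 5.13 to 5.32 for Map1lc3a. For Vmp1 and Wipi1 only another probe was called.

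Support from further probes was uneven across the members. For 20 members the 1 tested probe is the whole evidence, and for 14 members another probe could be compared. In untreated cells the 21 comparisons with another probe gave 2 in which both were called in the same direction, 6 in which only the used probe was called with the same sign, 1 with the opposite sign, 2 in which only the other probe was called and 10 with neither. After IFNβ the genotype difference gave 1 call by both probes, 3 by the used probe with the same sign, 1 with the opposite sign, 3 by the other probe only and 13 by neither.

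In 3 members the 2 background sets of arrays did not overlap, whatever the genotype: Map1lc3b, Pik3c3 and Atg10. This is 8.82% of the members, beside 4.72% of all genes. Map1lc3b, the gene of the ATG8 protein most used as an autophagosome marker, was at 7.78 to 8.08 in the higher and at 6.91 to 7.35 in the lower background set. Its genotype difference was 0.39 ± 0.29 untreated (limma adjusted p = 0.333) and 0.35 ± 0.29 after IFNβ (limma adjusted p = 0.400). With the set as a block the difference was 0.15 untreated (limma adjusted p = 0.347) and 0.11 after IFNβ (limma adjusted p = 0.512). Pik3c3 was at 7.40 to 7.67 in the higher and 7.67 to 8.02 in the lower set, and Atg10 at 6.06 to 6.33 in the higher and 6.44 to 6.77 in the lower set. The closest Pik3c3 arrays of the 2 sets differed only beyond the second decimal. Each Ulk1/2-/- group holds 2 arrays of the higher set and each Ulk1/2+/+ group 1, so the sets are unevenly spread over the genotypes.

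**Figure D5:**
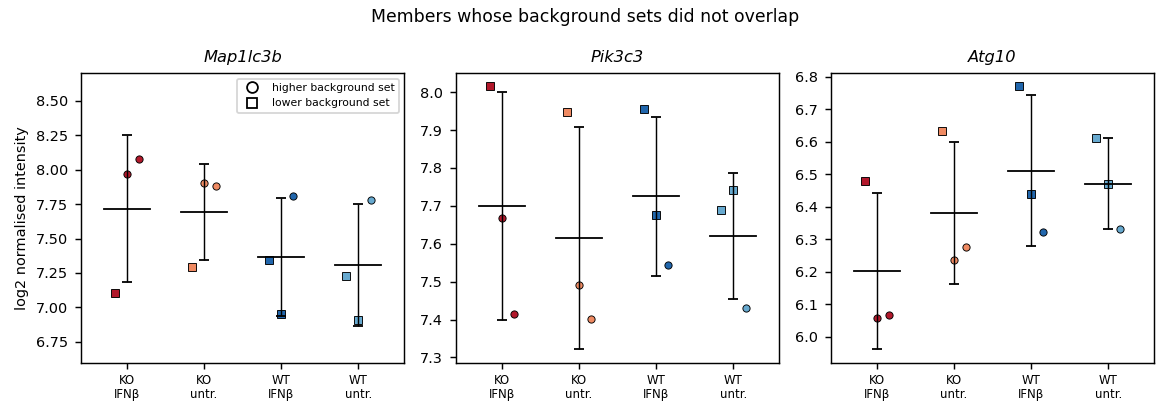
Level of Map1lc3b, Pik3c3 and Atg10 on every array (log2 normalised intensity, y axis) in Ulk1/2-/- (KO) with IFNβ and untreated, then Ulk1/2+/+ (WT) with IFNβ and untreated. Circles are arrays of the higher and squares arrays of the lower background set, and lines with bars are the mean ± SD of 3 arrays. In every group the circles of Map1lc3b, at 7.78 to 8.08, lie above its squares, at 6.91 to 7.35.

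A wider list of 66 autophagy and lysosome-linked genes outside the set, 53 of them tested, was counted beside the set. IFNβ raised 2 of them in Ulk1/2-/- cells and lowered 5, beside 11.4% of all genes called in either direction, with Irgm1, an interferon-inducible GTPase gene, at 0.72, Sh3glb1, whose protein binds UVRAG, at 0.60 and Bcl2, an inhibitor of BECN1, at -0.83. In Ulk1/2+/+ cells it raised 3 and lowered 10, beside 18.7% of all genes, with Irgm1 at 1.36, Sh3glb1 at 0.69, the arginine sensor gene Castor1 at -0.94 and the AMPK subunit gene Prkag2 at -0.78. Again 0 of 53 passed in the limma interaction, beside 1.05% of all genes. Untreated Ulk1/2-/- cells were higher in 9 and lower in 10, beside 33.9% of all genes. IFNβ-treated ones were higher in 10 and lower in 9, beside 31.8%. The lower counts include Ulk1 and Ulk2, the deleted genes, so they do not stand for the other listed genes alone. Beside Ulk1 and Ulk2, the largest untreated differences were Castor1 at -1.59, Deptor, an MTOR inhibitor gene, at 1.50, the lysosomal gene Dram1 at -1.36 and Foxo1, a transcription factor gene, at 1.06. After IFNβ they were Dram1 at -1.98, Deptor at 1.45, Castor1 at -1.20 and Bcl2l1, a gene of the BCL2 family, at 0.99. The median of the list was -0.12 for IFNβ in Ulk1/2-/- cells, -0.06 for IFNβ in Ulk1/2+/+ cells, 0.00 for the untreated and -0.04 for the treated genotype difference.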

How the data were processed

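Per the labels, biotin-labelled cRNA from 150 ng of total RNA was hybridised. The deposited intensity of each probe is linear and was not normalized by the authors, and a detection p-value is deposited beside it. The authors' deposited log2 table gave the same values as quantile normalization without background correction, and no source used here names their software. Probes were named from the platform annotation, and 34885 of 45281 had 1 gene.

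From the intensities, limma 3.58.1 in R 4.3.3 applied neqc (normexp with offset 16, quantile normalization). Only probes detected (p under 0.01) on 3 or more arrays entered, each gene was read from its brightest probe, and 1 model of 4 group means over 12 arrays was moderated with eBayes. It gave 5 contrasts, adjusted by Benjamini-Hochberg. The number of arrays limits the precision. Simulated data had 100 genes changed at each size, in the IFNβ-treated Ulk1/2-/- group only, with independent noise. The test there recovered 53% of changes of 0.5 and 95% of changes of 1 (log2) for IFNβ in Ulk1/2-/- cells. For the interaction it recovered 15% and 78%. In the real data 1015 genes were called for IFNβ in Ulk1/2-/- cells and arrays deviated together, so these shares need not hold there. After group means were removed, same-numbered arrays of a genotype correlated at 0.31 to 0.62 across genes and those of different genotype at -0.36 to 0.43, so the numbers were read as pairs within genotype only. All 6 of those pairs share a background set: differently numbered arrays of 1 set correlated at 0.08 to 0.23 within a genotype and at 0.30 to 0.43 across genotypes. For a gene undetected on every array of its dimmer group the fold is a bound. Each dim array was set to its lowest detected signal, or to the probe's own signal where higher. The difference of the log2 means was then taken, with no allowance for the spread among arrays. The members, lists and tests were chosen with earlier results of these data known. Named in detail were members called for IFNβ or the interaction and the 12 called with the largest genotype difference. From the wider list, called genes were named. Promoter windows came from RefSeq. Figures were drawn with matplotlib.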

Additional observations from a re-analysis of the deposited data

How the results depend on the processing

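Of 323 repeats of the 23 called member differences under other settings, 293 kept direction and call, 30 lost the call and 0 changed sign. The repeats are not all separate. The authors' log2 table and the setting without background correction gave the same values and were both counted. For a member with 1 tested probe, the mean of its tested probes is that same probe. Leaving out 1 array kept 250 of 276. The compared groups did not overlap in any of the 23, so leaving out arrays or fitting 1 background set alone could not reverse a sign. Of 20 comparisons with another probe of the same gene, 5 kept the call, 13 lost it and 2 reversed. Both reversals came from 1 dim Tsc2 probe (group means 5.21 to 5.73), at 0.367 untreated and 0.0376 after IFNβ. The cause was not tested.

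Counts of called members were most open to the setting for IFNβ. In Ulk1/2-/- cells the count of 1 became 3 with the background set as a block, 0 in the lower background set alone, 2 with the replicate block across all groups and 4 with the replicate block within genotype. It ran from 0 to 2 with 1 array left out: 0 without untreated Ulk1/2-/- replicate 2, and 2 without untreated Ulk1/2-/- replicate 3 (Bnip3l added) or untreated Ulk1/2+/+ replicate 3 (Atg4d added). In Ulk1/2+/+ cells the count of 3 became 6 with the set as a block, 1 in the higher set alone, 1 under median scaling and 7 with the replicate block within genotype, and ran from 2 to 4 with 1 array left out. For the genotype difference, the lower set alone gave 5 members after IFNβ, in place of 8, and 5 untreated, in place of 11; with 1 array left out the counts were 6 to 8 after IFNβ and 10 to 12 untreated. The interaction count of 0 became 1 with the replicate block within genotype and stayed at 0 with any 1 array left out. Fits within 1 set rest on 6 arrays, where a group with 1 array is assumed to vary like the others. The replicate block changed no other count by over 1.5 times.

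Zfyve1, Atg7, Atg4c, Nbr1, Tsc1 and Prkaa1 were detected on 4 to 8 of 12 arrays, so their differences are limited by background. In the simulated data, with 3 arrays a group, changes of 0.5 in the interaction were mostly missed.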
